A study of Mus musculus with 24 samples.

Results

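The 10 genes described here encode the proteins that let calcium into the cytoplasm of striated muscle and take it out again. Most come in pairs of which one partner is known from the heart and the other from skeletal muscle. They are the L-type calcium channel subunits Cacna1s and Cacna1c, the ryanodine receptors Ryr1 and Ryr2, the calcium pumps Atp2a1 (SERCA1) and Atp2a2 (SERCA2), the small pump inhibitors Pln (phospholamban) and Sln (sarcolipin), and the calsequestrins Casq1 and Casq2. Members were taken by gene symbol, and all 10 were found among the 55401 genes counted. Each had 1 row in the table.

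Total RNA stripped of ribosomal RNA came from 3 tissues of 8 C57BL6/J mice. The groups were 86-week and 16.5-week mice, 4 mice each, with 2 females and 2 males at either age, and each mouse, named by its number, gave left ventricle, skeletal muscle and kidney, hence 24 libraries. Mice 11, 12 (females), 14 and 17 (males) were 86 weeks old, and mice 14, 15 (females), 19 and 20 (males) were 16.5 weeks old, so that number 14 stands for a different animal at each age. The labels name no treatment or altered gene, and they do not say which skeletal muscle was sampled. Library totals ran from 52602585 to 103797551 counts. Levels are given as counts per 1000000 (CPM) after TMM scaling, and as CPM per kilobase of exon where one gene is set against another.

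In striated muscle the action potential opens L-type channels in the transverse tubules, ryanodine receptors release calcium from the sarcoplasmic reticulum, and SERCA pumps return it. In skeletal muscle the L-type channel is known to act on the release channel by direct contact, whereas in the heart calcium that enters through the channel triggers release. Calsequestrins store calcium inside the reticulum, and phospholamban and sarcolipin hold the pumps back until they are phosphorylated or displaced.

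Stretches of 200 bases upstream of the start are shown for 4 members because they set genes of the skeletal muscle pattern (Casq1, Cacna1s) beside genes of the heart pattern (Casq2, Pln). The sequences are from RefSeq on GRCm38.p6, run from 250 to 51 bases before the start that RefSeq gives, 5′ to 3′ on the strand of the gene, and carry matches to known muscle motifs in capitals.
Casq1, chr1:172219946-172220145, minus strand: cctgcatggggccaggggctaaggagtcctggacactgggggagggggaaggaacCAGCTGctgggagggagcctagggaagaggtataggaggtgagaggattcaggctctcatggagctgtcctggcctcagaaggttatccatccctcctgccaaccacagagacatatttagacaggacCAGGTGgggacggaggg
Cacna1s, chr1:136052561-136052760, plus strand: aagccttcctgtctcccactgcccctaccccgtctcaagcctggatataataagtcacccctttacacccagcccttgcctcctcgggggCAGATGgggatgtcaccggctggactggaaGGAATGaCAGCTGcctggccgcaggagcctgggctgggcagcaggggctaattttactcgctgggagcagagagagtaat
Casq2, chr3:102086165-102086364, plus strand: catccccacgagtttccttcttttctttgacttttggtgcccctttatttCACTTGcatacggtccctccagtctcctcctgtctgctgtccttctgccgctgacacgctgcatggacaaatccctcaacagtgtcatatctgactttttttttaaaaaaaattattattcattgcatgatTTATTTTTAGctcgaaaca
Pln, chr10:53337436-53337635, plus strand: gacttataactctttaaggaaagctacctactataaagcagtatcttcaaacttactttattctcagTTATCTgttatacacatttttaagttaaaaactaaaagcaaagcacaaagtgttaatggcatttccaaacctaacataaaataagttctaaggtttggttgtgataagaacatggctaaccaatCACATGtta

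Motifs were searched on both strands, and overlapping matches were allowed. Capitals mark the E-box, CANNTG, in all 4 stretches. In Cacna1s they also mark an M-CAT motif, whose letters are CATTCC, read on the other strand, with an E-box just after it. Casq2 holds a match to the MEF2 motif, and Pln holds a GATA motif, AGATAA, read on the other strand. RefSeq stretches were matched for 8 of the 10 members, Cacna1c having several, and Sln and Atp2a2 are named only. An E-box stood in 6 of these 8 genes and in 59% of 32851 promoter stretches of the same length. M-CAT, MEF2 and GATA matches each stood in 1 of the 8 members, against 10.7%, 2.42% and 8.42% of all stretches. All of these lie in the 4 stretches shown, whereas Ryr1 and Atp2a1, also of the skeletal muscle pattern, held no match to any motif searched. The CArG box had 0 matches among the 8 members and occurred in 1.16% of all stretches. A match is a stretch of letters and not a measured binding site. The gene bounds given with the values below are those of the GENCODE annotation, whose starts can differ from those of RefSeq, so that the Cacna1s stretch ends inside the GENCODE gene.

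The tissue labels were checked by summed levels of marker lists. Cardiomyocyte markers (8 genes) summed to 47331 to 67231 CPM in left ventricle, against 105 to 667 CPM in skeletal muscle and 11.4 to 50.2 CPM in kidney. Fast fibre markers (10 genes) summed to 128125 to 190732 CPM in skeletal muscle and to at most 76.2 CPM elsewhere, and kidney tubule markers (8 genes) to 11091 to 16717 CPM in kidney and at most 119.6 CPM elsewhere. Smooth muscle markers (7 genes) summed to 206.9 to 310.3 CPM in left ventricle, 65.4 to 91.6 CPM in skeletal muscle and 84.2 to 175.7 CPM in kidney, and adipocyte markers (6 genes) to 200.9 to 277, 46.7 to 319.9 and 20.1 to 159 CPM in the same order of tissues. No marker of any list was at 0 over a whole group. Slow fibre markers (7 genes) summed to 15.8 to 92.2 CPM in skeletal muscle, far below the fast fibre list. The slow list, which shares Myl2 and Myl3 with the cardiomyocyte list, was at 7402 to 10741 CPM in left ventricle and 9.96 to 18.2 CPM in kidney. In bulk tissue, fewer cells of a type and less RNA per cell cannot be told apart.

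The first comparison asked which isoforms each tissue used. All 10 members differed between left ventricle and skeletal muscle, 6 being higher and 4 lower in left ventricle (edgeR quasi-likelihood test, Benjamini-Hochberg adjusted p under 0.05, n = 8 libraries per tissue). With the mouse as a block 9 of the 10 passed, all but Sln. Of 45182 genes tested, 27.8% passed, with 16% higher and 11.8% lower in left ventricle. Values of the groups did not overlap for 9 of the 10 members, against 14.7% of all genes. Left ventricle had 9 members higher than kidney and 0 lower, where 35% of all genes passed, 15% higher and 20% lower. Skeletal muscle had 7 members higher and 1 lower than kidney, where 45.5% passed, 22.6% higher and 22.9% lower. Tissues did not overlap for 7 members between left ventricle and kidney and for 6 between skeletal muscle and kidney, against 19.4% and 21.7% of all genes. Of the genes called, 57.4%, 42.9% and 49.6% were higher in the first tissue of these 3 comparisons, and without normalisation beyond the total count these shares were 81.4%, 24% and 13.1%. That scaling put the median of all genes at 0.20, -0.18 and -0.36. With TMM, the median log2 difference was 3.37 over the members and -0.12 over all genes for left ventricle minus skeletal muscle. It was 4.45 and 0.10 for left ventricle minus kidney, and 2.35 and 0.24 for skeletal muscle minus kidney.

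**Figure D1:**
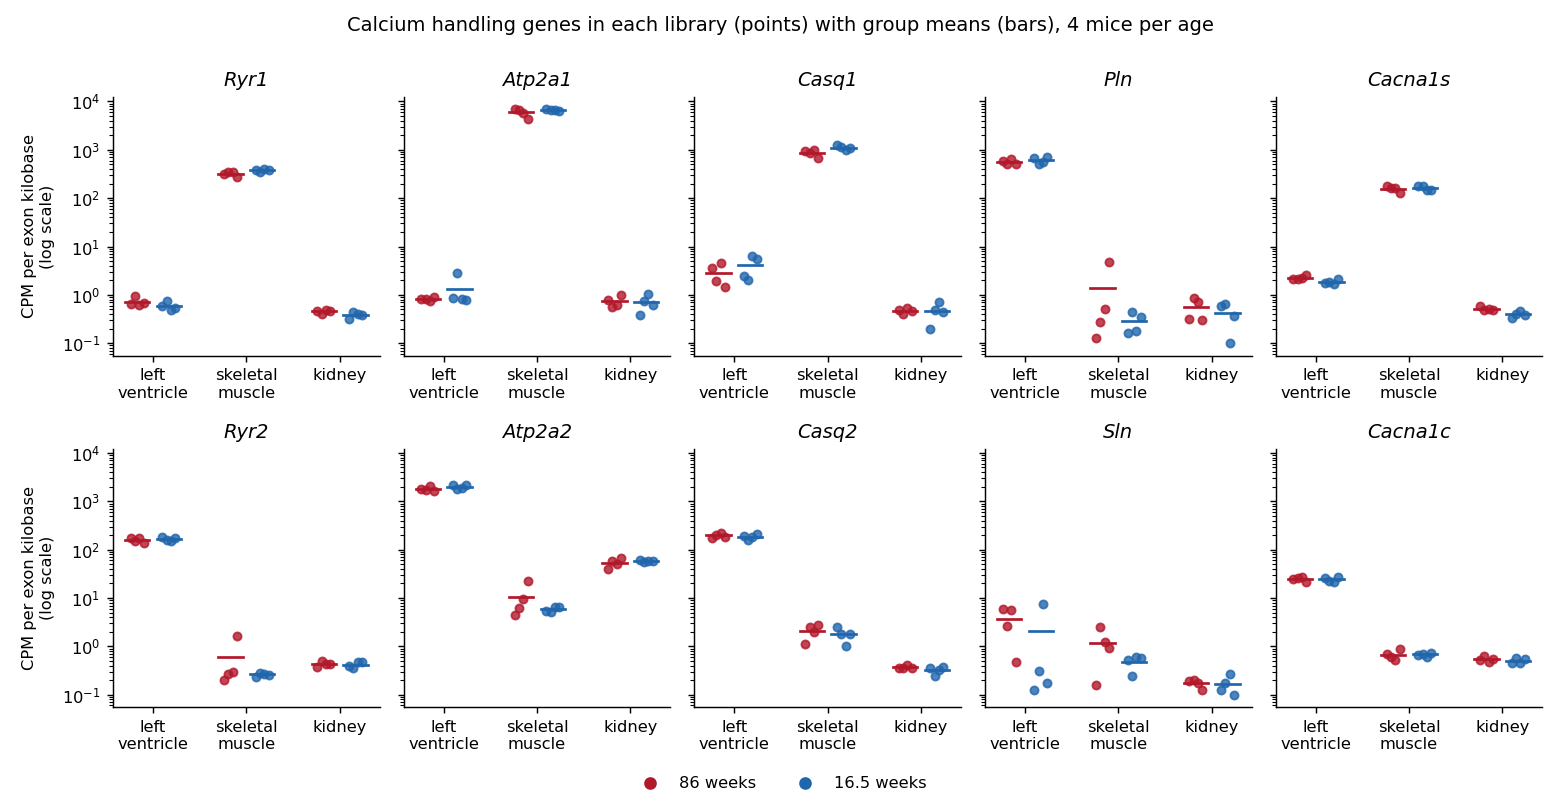
Level of each member in every library (points, CPM per exon kilobase on a log axis) with group means (bars), 86 weeks left of 16.5 weeks within left ventricle, skeletal muscle and kidney, 4 mice per group. Ryr1, Atp2a1, Casq1 and Cacna1s stand high in skeletal muscle alone, Ryr2, Atp2a2, Casq2, Pln and Cacna1c stand high in left ventricle, and Sln is low in all 3 tissues, with left ventricle libraries between 0.124 and 7.53 CPM per exon kilobase.

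Cacna1s, the voltage-sensing L-type subunit of skeletal muscle (chromosome 1, 136052750 to 136119822, plus strand), ran from 10.8 through a median of 13.8 to 16.6 CPM in left ventricle. It ran from 829.6 through 1064 to 1188 CPM in skeletal muscle and from 2.20 through 3.11 to 3.78 CPM in kidney. The 3 tissues did not overlap, and left ventricle was 82.4-fold below skeletal muscle (log2 difference -6.36 ± 0.11, adjusted p = 3.5e-24 by edgeR, where ± after a log2 difference is its SE). Cacna1c, the cardiac and smooth muscle subunit (chromosome 6, 118587240 to 119196418, minus strand), ran from 453.7 through 533.7 to 582.2 CPM in left ventricle. Skeletal muscle held 11.3 to 18.6 CPM with a median of 14.4, and kidney 9.49 to 13.2 CPM with a median of 11.3. Left ventricle was thus 34.6-fold above skeletal muscle (5.11 ± 0.12, adjusted p = 6.12e-22 by edgeR). Skeletal muscle and kidney overlapped, although skeletal muscle was higher by 0.42 ± 0.10 log2 units (adjusted p = 0.0015 by edgeR). That difference was -0.17 ± 0.11 without normalisation beyond the total count (adjusted p = 0.293 by edgeR).

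Ryr1, the release channel of skeletal muscle (chromosome 7, 29003344 to 29125179, minus strand), ran from 10.5 through 13.6 to 20.4 CPM in left ventricle. In skeletal muscle it ran from 5958 through 7611 to 8696 CPM, and in kidney from 7.05 through 9.14 to 10.5 CPM. Left ventricle was 559-fold below skeletal muscle (-9.13 ± 0.15, adjusted p = 3.5e-24 by edgeR) and 1.52-fold above kidney (0.60 ± 0.11, adjusted p = 5.36e-05 by edgeR), where the values overlapped. Ryr2, the cardiac release channel (chromosome 13, 11553102 to 12106945, minus strand), ran from 3896 through 4782 to 5284 CPM in left ventricle. Skeletal muscle held 5.71 to 46.99 CPM with a median of 7.81, and kidney 10.1 to 14.3 CPM with a median of 12.5. Left ventricle was 416-fold above skeletal muscle (8.70 ± 0.33, adjusted p = 7.96e-18 by edgeR), and without the muscle library of 86-week mouse 17, which held the 46.99 CPM, this difference was 9.23 ± 0.15. For Ryr2, skeletal muscle minus kidney was -0.14 ± 0.24 (adjusted p = 0.647 by edgeR) and did not pass. Without that library it was -0.67 ± 0.10 and passed (adjusted p = 6.72e-06 by edgeR).

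Atp2a1, the pump of fast fibres (chromosome 7, 126445858 to 126463108, minus strand), had the largest tissue difference of the 10 members. It ran from 2.61 through 2.90 to 9.65 CPM in left ventricle, from 14915 through 23008 to 24345 CPM in skeletal muscle and from 1.32 through 2.39 to 3.65 CPM in kidney. Left ventricle was 6399-fold below skeletal muscle (-12.64 ± 0.32, adjusted p = 1.81e-21 by edgeR). Left ventricle and kidney overlapped, with a difference of 0.50 ± 0.21 that did not pass (adjusted p = 0.0725 by edgeR). It passed without 86-week mouse 11 (0.63, adjusted p = 0.0479) and without 16.5-week mouse 19 (0.66, adjusted p = 0.0344). Rabep2, on the opposite strand, shares 763 exon bases with Atp2a1, and the strand setting of the counting is not given in the sources used here. The part of Rabep2 in the few CPM of left ventricle and kidney was not tested. Atp2a2, the pump of heart and slow fibres and of many other cells (chromosome 5, 122453513 to 122502225, minus strand), ran from 9720 through 11356 to 13249 CPM in left ventricle. Skeletal muscle held 27.2 to 133.7 CPM with a median of 38.6, and kidney 240.9 to 415.2 CPM with a median of 350.6. No 2 of the tissues overlapped. Left ventricle was 241-fold above skeletal muscle (7.92 ± 0.22, adjusted p = 1.44e-20 by edgeR). Atp2a2 was the single member called lower in skeletal muscle than in kidney, by 7.24-fold (-2.86 ± 0.18, adjusted p = 9.11e-14 by edgeR).

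Pln, the inhibitor of the cardiac pump (chromosome 10, 53337667 to 53345987, plus strand), ran from 1389 through 1592 to 1980 CPM in left ventricle. Skeletal muscle held 0.348 to 13.2 CPM with a median of 0.863, and kidney 0.275 to 2.42 CPM with a median of 1.31. Left ventricle was 1045-fold above skeletal muscle (10.03 ± 0.54, adjusted p = 1.49e-14 by edgeR; 10.89 ± 0.39 without the muscle library of 86-week mouse 17) and 1230-fold above kidney (10.26 ± 0.54, adjusted p = 3.81e-15 by edgeR). For Pln, skeletal muscle minus kidney was 0.24 ± 0.44 (adjusted p = 0.689 by edgeR). Without that library the sign turned (-0.62 ± 0.30, adjusted p = 0.106 by edgeR), and it did so as well without 16.5-week mouse 15 and without normalisation beyond the total count. Genes on the opposite strand share exon bases with Pln, 1644 from Gm47644 and 141 from Cep85l.

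Sln, the sarcolipin gene, an inhibitor of both pumps known from atria and slow or developing muscle (chromosome 9, 53850164 to 53854560, plus strand), was low throughout. It ran from 0.163 through 2.06 to 9.93 CPM in left ventricle, from 0.211 through 0.781 to 3.26 CPM in skeletal muscle and from 0.128 through 0.231 to 0.347 CPM in kidney. Left ventricle exceeded kidney by 3.83 ± 0.68 log2 units (adjusted p = 3.51e-05 by edgeR), with overlapping values. It exceeded skeletal muscle by 1.64 ± 0.60 (adjusted p = 0.0419 by edgeR), again with overlap. With the mouse as a block the difference was 0.93 ± 0.58 and did not pass (adjusted p = 0.285 by edgeR). Without 16.5-week mouse 19 it was 0.14 (adjusted p = 0.891) and without 86-week mouse 11 it was 0.998 (adjusted p = 0.282). It missed the threshold in DESeq2 as well (1.66, adjusted p = 0.0597), without a low-count filter (1.71, adjusted p = 0.0722), without the muscle library of mouse 17 (1.56, adjusted p = 0.0857), and without 86-week mouse 14 (1.74, adjusted p = 0.0811) or 16.5-week mouse 15 (1.70, adjusted p = 0.068). Skeletal muscle exceeded kidney by 2.20 ± 0.70 (adjusted p = 0.0111 by edgeR), which missed the threshold without 86-week mouse 12 (1.63, adjusted p = 0.101) and without normalisation beyond the total count (1.58, adjusted p = 0.0883).

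Casq1, the calsequestrin of fast fibres (chromosome 1, 172209894 to 172219868, minus strand), ran from 2.90 through 5.82 to 12.6 CPM in left ventricle. It ran from 1344 through 1922 to 2392 CPM in skeletal muscle and from 0.381 through 0.936 to 1.40 CPM in kidney. The 3 tissues did not overlap, and left ventricle was 312-fold below skeletal muscle (-8.28 ± 0.26, adjusted p = 2.17e-19 by edgeR) and 7.02-fold above kidney (2.81 ± 0.23, adjusted p = 3.15e-11 by edgeR). Casq2, the cardiac calsequestrin (chromosome 3, 102086415 to 102146514, plus strand), ran from 443.4 through 509.3 to 609.3 CPM in left ventricle. Skeletal muscle held 2.78 to 7.48 CPM with a median of 5.28, and kidney 0.674 to 1.14 CPM with a median of 0.970. Here too the tissues did not overlap, and left ventricle was 94-fold above skeletal muscle (6.55 ± 0.18, adjusted p = 1.81e-20 by edgeR). Skeletal muscle was 5.71-fold above kidney (2.51 ± 0.17, adjusted p = 6.39e-13 by edgeR).

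**Figure D2:**
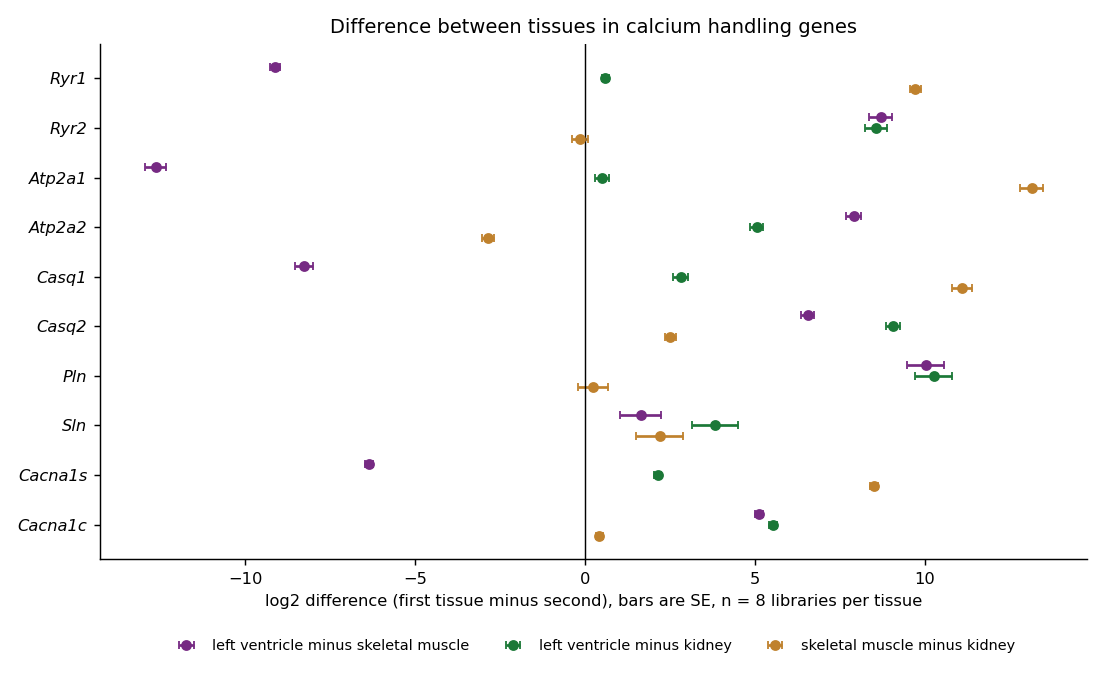
Log2 difference of each member between tissues (points) with its standard error (bars), 8 libraries per tissue, drawn for left ventricle minus skeletal muscle, left ventricle minus kidney and skeletal muscle minus kidney. The largest distance from 0 is Atp2a1 in skeletal muscle minus kidney at 13.15, and Sln has the widest bar among the left ventricle differences, with a standard error of 0.60 against skeletal muscle and 0.68 against kidney.

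Set per kilobase of exon, the order of the members was Atp2a2, Pln, Casq2, Ryr2 and Cacna1c in left ventricle, with means of 1901, 588, 191, 163 and 24.6 CPM per exon kilobase. Of these, Casq2 and Ryr2 overlapped. The other 5 members followed at 0.654 to 3.48 and each overlapped its neighbour in the order. In skeletal muscle Atp2a1 came first at 6284, then Casq1 at 992.5, Ryr1 at 345.9, Cacna1s at 160.3 and Atp2a2 at 8.22, and no neighbours among them overlapped. In kidney Atp2a2 stood apart at 56.0, and the other 9 members lay between 0.170 and 0.717 with neighbours overlapping. As a floor, 95% of 1138 olfactory receptor genes were at or below 0.294 CPM per exon kilobase in left ventricle and 0.328 in skeletal muscle, with 0.244 in kidney. Means over the 8 libraries of a tissue exceeded that floor for all members except Sln in kidney. In skeletal muscle Ryr2 and Pln did so through 1 library: without that of 86-week mouse 17 they averaged 0.259 and 0.292 CPM per exon kilobase, under the floor, while the other 8 members stayed above it.

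Within each family, the share of one isoform was read from counts per exon kilobase. Ryr1 made up 0.404% ± 0.111 of the 3 ryanodine receptors in left ventricle and 99.7% ± 0.196 in skeletal muscle, with 36.7% ± 3.38 in kidney (SD, n = 8). Atp2a1 made up 0.0579% ± 0.0406 of the 3 SERCA genes in left ventricle and 99.8% ± 0.151 in skeletal muscle, with 1.21% ± 0.403 in kidney. For Casq1 among the calsequestrins the shares were 1.78% ± 0.911 in left ventricle and 99.8% ± 0.0957 in skeletal muscle, with 56.1% ± 10.4 in kidney. In words, the skeletal muscle forms were nearly the sole forms counted in skeletal muscle, and the heart forms in left ventricle, while kidney held the pairs at similar low levels apart from its pump.

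Of the Ryr1, Atp2a1, Casq1 and Cacna1s shares, that of Cacna1s was the largest in left ventricle, with 7.51% ± 1.20 of Cacna1s, Cacna1c and Cacna1d together there and 99.25% ± 0.184 in skeletal muscle, with 22.2% ± 3.46 in kidney. The left ventricle share was 5.04% with the longest transcript as length and 2.48% without division by length. Gm37759, on the opposite strand, shares 1309 exon bases with Cacna1s. Sln made up 0.489% ± 0.519 of Sln plus Pln in left ventricle and 60.5% ± 24.3 in skeletal muscle, where single libraries ran from 16.3% to 89.9%. The log2 ratio of Pln to Atp2a2 was -1.70 ± 0.0752 in left ventricle and -4.26 ± 1.01 in skeletal muscle, with -7.07 ± 1.04 in kidney. It ran from -1.80 to -1.60 over the 8 left ventricle libraries, and whether other pairs of genes kept as narrow a range there was not tested.

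**Figure D3:**
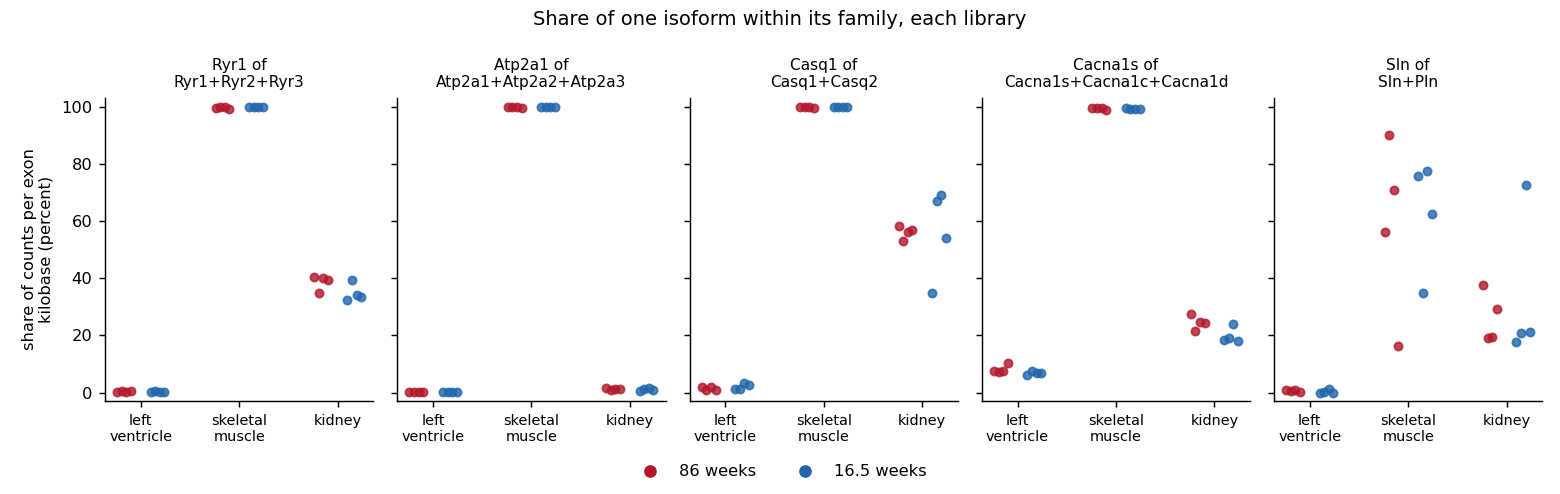
Share of the first named gene within its family in each library (points, percent of counts per exon kilobase), 86 weeks left of 16.5 weeks within each tissue. The Ryr1, Atp2a1, Casq1 and Cacna1s shares are at least 98.85% in every skeletal muscle library and at most 10.3% in every left ventricle library, whereas the Sln share in skeletal muscle spreads from 16.3% to 89.9%. Sln and Pln both had low counts in skeletal muscle.

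The second comparison asked whether the members differed between 86-week and 16.5-week mice within a tissue. By edgeR 0 of 10 members passed in left ventricle, skeletal muscle or kidney, where 0.0741%, 0.0183% and 0.112% of all genes passed. DESeq2 called 0 members in each tissue as well. At an unadjusted p under 0.05 left ventricle had 1 member (Cacna1s), skeletal muscle 3 (Atp2a2, Casq1, Sln) and kidney 2 (Ryr1, Cacna1s), against 3.37%, 5.51% and 7.96% of all genes. Age groups did not overlap for 0 members in left ventricle, 1 in skeletal muscle (Casq1) and 1 in kidney (Cacna1s), against 2.1%, 2.68% and 3.41% of all genes. The test of whether the age difference itself differed between tissues was passed by 0 of 10 members and 0.0398% of all genes. At an unadjusted p under 0.05 that test named Ryr1, Atp2a2 and Cacna1s, against 4.13% of all genes, all with an adjusted p of 1 by edgeR, and DESeq2 called 0 members. The median log2 difference between ages was -0.03 over the members and 0.01 over all genes in left ventricle, 0.15 and 0.02 in skeletal muscle, and 0.12 and 0.02 in kidney.

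In left ventricle, none of the heart forms passed the age test. Values are given in the order of mice 11, 12, 14 and 17 at 86 weeks and 14, 15, 19 and 20 at 16.5 weeks. Ryr2 had 4939, 4386, 5035 and 3896 CPM at 86 weeks, against 5284, 4625, 4307 and 5137 CPM at 16.5 weeks. The values overlapped, and the log2 difference was -0.09 ± 0.15 (SE, n = 4 per age, adjusted p = 1 by edgeR). Atp2a2 had 11114, 10388, 12486 and 9720 CPM at 86 weeks, against 13204, 10725, 11598 and 13249 CPM at 16.5 weeks (-0.16 ± 0.16, adjusted p = 1 by edgeR). Pln, Casq2 and Cacna1c differed by -0.13 ± 0.14, 0.09 ± 0.12 and 0.02 ± 0.12. The age groups overlapped for all 5 genes.

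Among the skeletal muscle forms in left ventricle, Cacna1s had 13.8, 13.7, 14.5 and 16.6 CPM at 86 weeks, against 11.6, 12.2, 10.8 and 13.8 CPM at 16.5 weeks. The highest young library overlapped the lowest old ones, and the difference was 0.27 ± 0.12 (unadjusted p = 0.031, adjusted p = 1 by edgeR). Ryr1 differed by 0.28 ± 0.14. Atp2a1 had 2.92, 2.87, 2.61 and 3.20 CPM at 86 weeks, against 2.97, 9.65, 2.86 and 2.72 CPM at 16.5 weeks, where mouse 15 stood apart. Its difference was -0.56 ± 0.30, and 0.03 ± 0.18 without that mouse. In the same library Myh4, the fast IIb myosin, was at 28.6 CPM, against 1.65 to 2.76 CPM in the other 7 left ventricle libraries. Myh4 was chosen after its value was seen. The summed fast fibre list, which includes Myh4, was at 76.2 CPM in that library, against 32.3 to 55.05 CPM in the other 7. The part of fast fibre RNA in the Atp2a1 value was not tested. Casq1 had 6.88, 3.75, 8.99 and 2.90 CPM at 86 weeks, against 4.76, 3.87, 12.6 and 10.6 CPM at 16.5 weeks, so that libraries of 1 age differed by more than the ages did. Its difference was -0.34 ± 0.30, and 0.02 without 86-week mouse 17.

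Sln in left ventricle had 7.85, 3.51, 7.31 and 0.613 CPM at 86 weeks, against 0.163, 0.411, 9.93 and 0.229 CPM at 16.5 weeks. At 86 weeks 3 of 4 libraries were above 3 CPM, and at 16.5 weeks 1 of 4 was, with the others under 1 CPM. The difference was 1.60 ± 1.01 (adjusted p = 1 by edgeR), and 4.21 ± 0.61 without 16.5-week mouse 19, where it passed (adjusted p = 0.00568). The young libraries left in that fit, at 0.163 to 0.411 CPM, were near the olfactory receptor floor. The lowest was at 0.124 CPM per exon kilobase, against a floor of 0.294 in left ventricle. Myl7, the atrial light chain, had 25.3, 11.4, 29.0 and 0.647 CPM in the 86-week libraries in the same order of mice, against 0.653, 0.423, 34.5 and 0.417 CPM at 16.5 weeks. Myl7 and Myl4, another atrial light chain, were by rule the 2 genes most like Sln over these 8 libraries (Pearson r = 0.990 and 0.986 on log2 CPM among 8050 genes, a description, since the libraries share a tissue and scaling). The summed atrial list (7 genes) ran from 22.7 to 220.3 CPM at 86 weeks and from 34.7 to 164.8 CPM at 16.5 weeks, with 0 of 7 at 0 in either group. The part of atrial tissue in the Sln values was not tested.

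**Figure D4:**
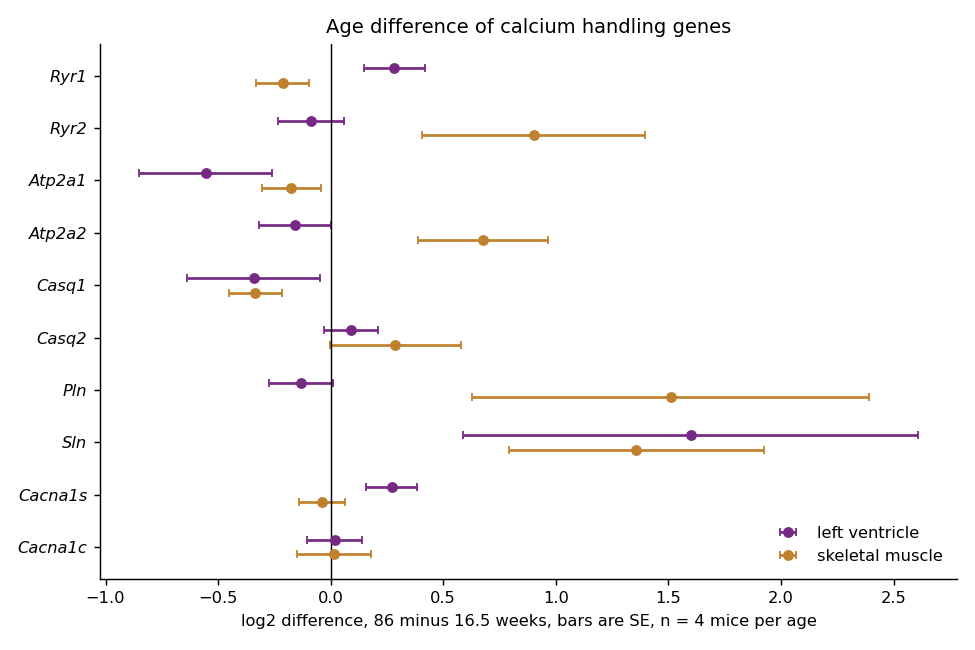
Log2 difference between 86-week and 16.5-week mice for each member (points) with its standard error (bars) in left ventricle and skeletal muscle, 4 mice per age. Sln in left ventricle (1.60 ± 1.01) and Pln in skeletal muscle (1.51 ± 0.88) lie farthest from 0 and have the widest bars, and no member passed the test.

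In skeletal muscle, none of the muscle forms passed the age test. Casq1 had 1825, 1708, 1922 and 1344 CPM at 86 weeks, against 2392, 2239, 1923 and 2138 CPM at 16.5 weeks. The groups did not overlap, the nearest libraries being at 1922 and 1923 CPM, and the difference was -0.33 ± 0.12 (unadjusted p = 0.013, adjusted p = 0.814 by edgeR). Ryr1 had 6742, 7639, 7447 and 5958 CPM at 86 weeks, against 8174, 7584, 8696 and 8188 CPM at 16.5 weeks (-0.21 ± 0.12, adjusted p = 0.942 by edgeR). Old and young libraries overlapped for Ryr1 by a single pair. Atp2a1 had 23893, 23141, 20106 and 14915 CPM at 86 weeks, against 24345, 22874, 23433 and 22099 CPM at 16.5 weeks (-0.17 ± 0.13, adjusted p = 0.977 by edgeR). Mouse 17 was the lowest of the 8 libraries for Casq1, Ryr1, Atp2a1 and Cacna1s, the last of which differed by -0.04 ± 0.10.

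Heart forms in skeletal muscle were led by a single library. Ryr2 had 5.71, 7.82, 8.36 and 46.99 CPM at 86 weeks, against 6.66, 8.26, 7.81 and 7.55 CPM at 16.5 weeks. Pln had 0.348, 0.765, 1.40 and 13.2 CPM at 86 weeks, against 0.455, 1.24, 0.483 and 0.960 CPM at 16.5 weeks. Atp2a2 had 27.2, 37.6, 57.7 and 133.7 CPM at 86 weeks, against 33.1, 30.7, 39.6 and 40.4 CPM at 16.5 weeks. In all 3 genes the high value was that of 86-week mouse 17, and the other old libraries overlapped the young ones. The differences were 0.90 ± 0.49, 1.51 ± 0.88 and 0.68 ± 0.29, and without mouse 17 they were -0.05, 0.04 and 0.22.

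The same muscle library held heart transcripts that are not members. Myh6, the alpha cardiac myosin, was at 334.4 CPM there and at 4.64 to 10.1 CPM in the other 7 muscle libraries. Expressed against the mean of left ventricle, mouse 17 muscle held 0.863% of Myh6, 0.871% of Tnni3, 1.04% of Myl2, 1.04% of Tnnt2 and 0.770% of Myl3. The members stood at similar fractions, with 0.999% for Ryr2, 1.16% for Atp2a2 and 0.811% for Pln, while Casq2 was at 1.44% and Cacna1c at 3.57%. For Casq2 and Cacna1c the same library was the highest of the 8 muscle libraries as well, at 7.48 and 18.6 CPM, against up to 6.85 and 15.8 CPM in the others. The summed cardiomyocyte list ran from 104.8 to 519.4 CPM at 86 weeks and from 160.4 to 666.5 CPM at 16.5 weeks, with 0 of 8 at 0. Actc1, a cardiac actin that skeletal muscle also makes, gave most of the young sums, up to 641.9 CPM. The summed slow fibre list was at 92.2 CPM in mouse 17 and at 15.8 to 24.5 CPM in the other 7 libraries. That list shares Myl2 and Myl3 with the cardiomyocyte list and was at 7402 to 10741 CPM in left ventricle. Its sum therefore cannot tell slow fibre RNA from heart RNA. The part of heart or slow fibre RNA in the Ryr2, Pln and Atp2a2 values was not tested.

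**Figure D5:**
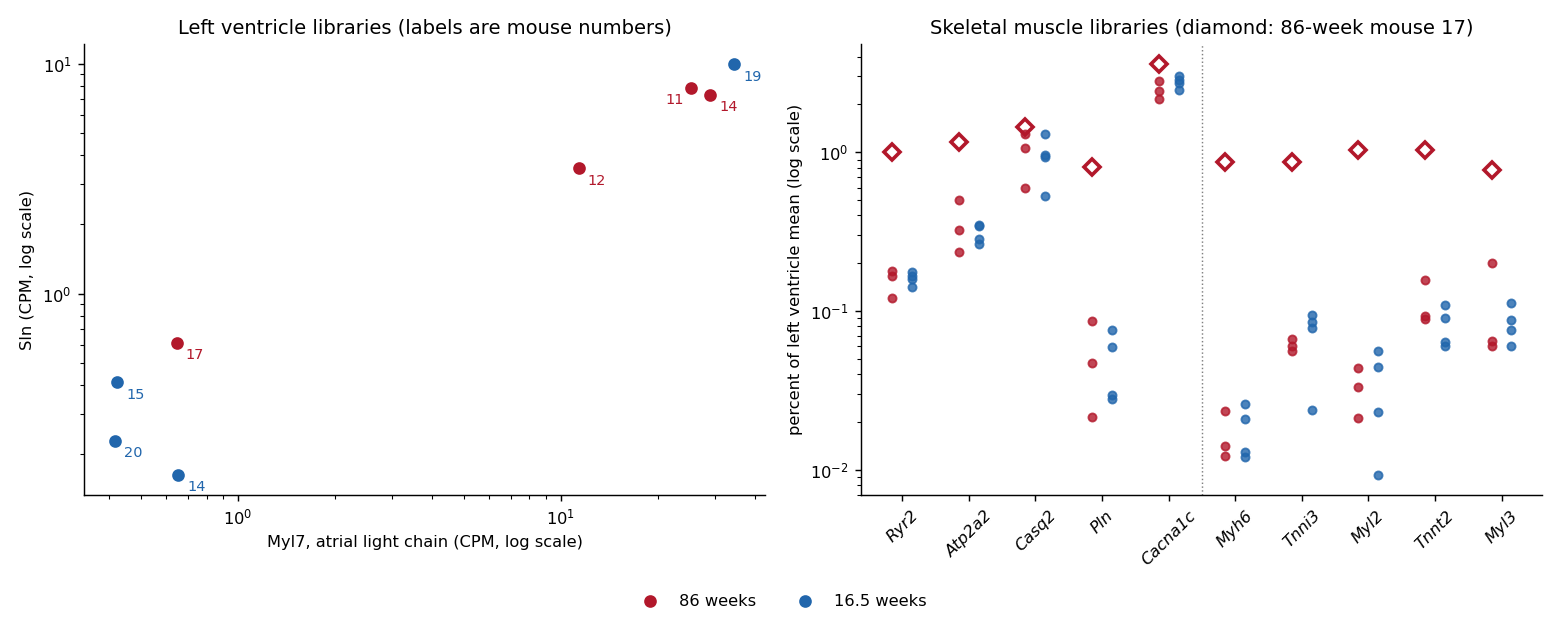
Left, Sln against Myl7 in the 8 left ventricle libraries (CPM, both axes log, labels are mouse numbers). Right, level of heart forms (Ryr2 to Cacna1c) and of other heart genes (Myh6 to Myl3) in skeletal muscle libraries as a percent of the left ventricle mean (log axis), where the diamond, 86-week mouse 17, lies between 0.770% and 1.16% for Ryr2, Atp2a2, Pln and the 5 other heart genes.

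Sln in skeletal muscle had 0.211, 3.26, 1.61 and 1.22 CPM at 86 weeks, against 0.682, 0.317, 0.798 and 0.764 CPM at 16.5 weeks. Of the old libraries 3 exceeded every young one and 1 lay below them all. The difference was 1.36 ± 0.57 (unadjusted p = 0.0314, adjusted p = 0.879 by edgeR) and 0.21 without 86-week mouse 12. Casq2 and Cacna1c differed by 0.29 ± 0.29 and 0.01 ± 0.16.

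In kidney, Cacna1s had 3.78, 3.22, 3.33 and 3.25 CPM at 86 weeks, against 2.20, 2.65, 3.004 and 2.57 CPM at 16.5 weeks. The groups did not overlap, and the difference was 0.42 ± 0.15 (unadjusted p = 0.0153, adjusted p = 0.484 by edgeR). Ryr1 had 10.3, 8.67, 10.5 and 10.2 CPM at 86 weeks, against 7.05, 9.61, 8.64 and 8.44 CPM at 16.5 weeks, and the difference was 0.27 ± 0.12 (unadjusted p = 0.0442, adjusted p = 0.62 by edgeR). Atp2a2, the leading member of kidney, had 240.9, 356.9, 306.4 and 415.2 CPM at 86 weeks, against 364.1, 337.6, 348.9 and 352.3 CPM at 16.5 weeks. The old libraries lay on both sides of the young ones (-0.07 ± 0.12, adjusted p = 0.931 by edgeR). Positive differences were found for 9 of 10 members in kidney, and the largest was 0.56 log2 units. The share of all genes with a positive difference is not given here. All members but Atp2a2 lay at 0.170 to 0.717 CPM per exon kilobase in kidney, near or under the floor of 0.244.

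Sex was the other factor of the design, with 4 females and 4 males per tissue. By edgeR 0 of 10 members passed in left ventricle, skeletal muscle or kidney, where 0.871%, 1.36% and 7.58% of all genes passed. DESeq2 called 0 members in each tissue as well. At an unadjusted p under 0.05 left ventricle had 2 members, skeletal muscle 4 and kidney 0, against 5.1%, 9.62% and 17.1% of all genes. In left ventricle, female minus male was 0.37 ± 0.14 for Ryr1 (adjusted p = 0.625 by edgeR) and -0.78 ± 0.30 for Casq1 (adjusted p = 0.685 by edgeR). Without 86-week mouse 17 the Casq1 difference was -1.14 and passed (adjusted p = 0.00865 by edgeR). Sexes did not overlap for 0 members in left ventricle and 2 in skeletal muscle, with 0 in kidney, against 3.5%, 6.28% and 10.1% of all genes. Atp2a2 had 27.2, 37.6, 33.1 and 30.7 CPM in females, against 57.7, 133.7, 39.6 and 40.4 CPM in males (-1.02 ± 0.29, adjusted p = 0.163 by edgeR), and the difference was -0.56 ± 0.14 without 86-week mouse 17. Cacna1s had 1154, 1087, 1188 and 1178 CPM in females, against 1042, 829.6, 979.5 and 943.9 CPM in males (0.22 ± 0.10, adjusted p = 0.511 by edgeR). Ryr2 and Pln differed by -1.13 ± 0.50 and -1.97 ± 0.89 in muscle, and by -0.17 and -0.45 without 86-week mouse 17, a male.

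The same steps were followed in 63 other calcium handling genes in 7 roles. Between left ventricle and skeletal muscle 19 were higher and 35 lower in left ventricle, and 9 did not pass. Of all genes 27.8% passed, with 16% higher and 11.8% lower. Coupling partners of the L-type channel split 3 higher and 5 lower of 8. The channel subunit Cacng1 had 0.503 ± 0.0679 CPM in left ventricle and 78.8 ± 12.1 CPM in skeletal muscle (SD, n = 8), and Stac3, the adaptor needed for channel coupling in skeletal muscle, had 2.50 ± 0.561 and 221.3 ± 29.5 CPM in these tissues. Of 19 genes of the junction and release unit 4 were higher and 11 lower, led by Jsrp1 (-7.44 ± 0.18) and the membrane-curving Bin1 (-6.19 ± 0.12).

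Pumps and pump regulators other than the members split 3 higher and 3 lower of 7. The pump activator Strit1 (DWORF) averaged 4.14 ± 0.942 CPM in left ventricle and 0.0586 ± 0.0732 CPM in skeletal muscle. The pump inhibitor Mrln (myoregulin) averaged 0.616 ± 0.107 CPM in left ventricle and 36.5 ± 5.67 CPM in skeletal muscle. Pln and Strit1 were thus higher in left ventricle, as Atp2a2 was, and Mrln in skeletal muscle, as Atp2a1 was.

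Genes of extrusion at the cell surface split 3 higher and 3 lower of 7, with the sodium-calcium exchanger Slc8a3 lower by a log2 difference of -5.58 ± 0.16 and the plasma membrane pump Atp2b3 by -3.25 ± 0.12. Next in size was the exchanger Slc8a1, which was higher in left ventricle (3.22 ± 0.10), at 687 CPM there and 70.3 CPM in skeletal muscle. Store-operated entry had 1 higher and 3 lower of 5, led by the reticulum calcium sensors Stim1 (-3.09 ± 0.09) and Stim2 (-1.81 ± 0.09). Calmodulins, kinases and the buffer had 2 higher and 7 lower of 9. The cytoplasmic calcium buffer Pvalb (parvalbumin) averaged 0.849 ± 0.370 CPM in left ventricle and 3865 ± 832.5 CPM in skeletal muscle, and the kinase Camk2a differed by -3.36 ± 0.13. Genes of mitochondrial uptake had 3 higher and 3 lower of 8, with Micu3, a regulator of the uptake channel, lower in left ventricle (-1.96 ± 0.10). Over the 63 genes the median log2 difference was -0.77, against -0.12 over all genes. Against kidney, 31 of the 63 were higher and 21 lower in left ventricle, where 15% and 20% of all genes were. In skeletal muscle 39 were higher and 18 lower than in kidney, where 22.6% and 22.9% of all genes were.

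With age, 0 of the 63 other genes passed by edgeR in any tissue (62 were tested in skeletal muscle and in kidney), and 0 passed the test of different age changes between tissues. At an unadjusted p under 0.05 there were 5 in left ventricle, 8 in skeletal muscle, 12 in kidney and 8 in the test between tissues, where 3.37%, 5.51%, 7.96% and 4.13% of all genes were under it. DESeq2 called 0, 1, 0 and 0 of the 63. The gene with the lowest p in skeletal muscle was Rrad, a small GTPase that restrains L-type channels, with 2.51 ± 0.518 CPM at 86 weeks and 1.33 ± 0.212 CPM at 16.5 weeks (SD, n = 4). Its log2 difference was 0.94 ± 0.21 (adjusted p = 0.36 by edgeR), with no overlap between ages, and DESeq2 put its adjusted p at 0.0395. By sex, 0 of the 63 genes passed in left ventricle by edgeR, 1 in skeletal muscle and 15 in kidney. Of all genes 0.871%, 1.36% and 7.58% passed in these tissues. At an unadjusted p under 0.05 there were 3, 7 and 29, against 5.1%, 9.62% and 17.1% of all genes. DESeq2 called 1, 1 and 13 of the list by sex. In skeletal muscle the gene called by edgeR was Ppp1r1a, an inhibitor of protein phosphatase 1, with 23.1 ± 2.80 CPM in females and 9.04 ± 1.33 CPM in males (1.30 ± 0.13, adjusted p = 0.00026 by edgeR). Of the 15 genes called by edgeR in kidney 12 were higher and 3 lower in females. The median log2 difference between sexes there was 0.12 over the listed genes tested and 0.02 over all genes. The exchanger Slc8a1 averaged 522.1 ± 121.7 CPM in kidneys of females and 296.2 ± 41.4 CPM in those of males (0.83 ± 0.12, adjusted p = 0.000604 by edgeR). Itpr2, an inositol trisphosphate receptor, averaged 287.5 ± 43.1 CPM in kidneys of females and 166 ± 25.5 CPM in those of males (0.81 ± 0.12, adjusted p = 0.000432 by edgeR). Trdn (triadin), a junction protein, was lower in females by a log2 difference of -1.26 ± 0.16 (adjusted p = 0.000125 by edgeR).

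For each member, genes whose log2 CPM followed it most closely over the 8 libraries of its highest tissue were listed by Pearson r, among genes with a mean of at least 10 CPM. Libraries of one tissue share their makeup and scaling, so these values describe the libraries and carry no test. In skeletal muscle, among 7026 genes, Atp2a1 was most like Mib2 (r = 0.999), Ryr1 most like Hectd4 (0.982), Casq1 most like Rnf157 (0.975) and Cacna1s most like Rmc1 (0.988). In left ventricle, among 8049 genes, Atp2a2 was most like Mrpl48 (0.992), Pln most like Pbrm1 (0.993), Casq2 most like Cfl1 (0.988), Ryr2 most like Ggcx (0.979) and Cacna1c most like Usp36 (0.980). Next in rank were Nop53, Elac1, Nrf1 and Eif2b1 in the same order of muscle members, and Mpp6, Atp5md, Foxj3, Pabpc4 and Nfkb2 in that of heart members, with r between 0.971 and 0.994. No member stood first or next in rank for another member.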

How the data were processed

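Ribosome-depleted total RNA of 3 tissues from 8 mice (24 libraries) was sequenced, per the labels. The submitters' processing notes name STAR 2.7.6a, StringTie 2.1.1 and the build GRCm38.p6, with no role or order. The deposited table holds whole-number gene counts, and the annotation release, the strand setting and how counts were made are not given in the sources used here. Of 55401 gene IDs, 55141 matched GENCODE M21, which gave positions and exon lengths.

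Counts were tested with edgeR 4.0.16 (R 4.3.3; quasi-likelihood F-test, TMM, filterByExpr, two-sided, Benjamini-Hochberg over all genes tested, threshold 0.05). Age and sex were fitted together within a tissue (8 libraries, 5 residual degrees of freedom). Tissues were compared in a fit of all 24 libraries with age and sex terms per tissue (15 residual degrees of freedom). The fitting was also run on simulated counts, with known changes put into genes of higher count. Those counts held no sex or mouse differences, and the outcome is not given here. The run does not bear on genes near the floor. Figures were drawn with Python 3.11.15 and matplotlib 3.10.9. Library totals were 52602585 to 103797551 counts, and the lowest member count was 10 (Sln in 1 kidney library).

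The members, the 63 other genes and the 7 marker lists (cardiomyocyte, atrial, fast fibre, slow fibre, kidney tubule, smooth muscle, adipocyte) were chosen with earlier results of these data known. Per role and comparison, the 2 largest changes among genes called and averaging 1 CPM or more were named, or the gene with the lowest p. They are given for left ventricle minus skeletal muscle and in part for age and sex. Slc8a1 in left ventricle minus skeletal muscle is given outside this rule. A gene named by this rule is not reported here. Heart genes in single muscle libraries, and Myh4, Hlf and Arntl in left ventricle, were chosen after seeing their values.

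Alternatives were DESeq2 1.42.0, RLE size factors, no normalisation beyond the total count, no low-count filter, no covariate, all libraries in 1 fit for age, other gene lengths, the mouse as a block and leaving out each mouse. Leaving out the skeletal muscle library of 86-week mouse 17 alone was chosen after seeing the data. Mouse names recur across tissues, so that tissues are paired by animal. Deviations of same-named samples from their group means correlated over 19698 genes with a median r of 0.169 between left ventricle and skeletal muscle, 0.085 between left ventricle and kidney and 0.101 between skeletal muscle and kidney.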

Additional observations from a re-analysis of the deposited data

Results flagged for a closer look

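In 60 groups of 4 libraries (10 members, 3 tissues, 2 ages), 5 groups held a library far from the other 3 by Dixon's criterion. Chance alone flags about 1 in 20 groups, or 3 of 60. Ryr2 in skeletal muscle at 86 weeks was at 46.99 CPM in mouse 17 and at 5.71 to 8.36 CPM in the other 3 mice. Pln in the same library was at 13.16 CPM, and at 0.348 to 1.40 CPM in the other 3. Both genes stood at close to the same percent of their left ventricle level as heart transcripts that are not members, and the part of heart RNA was not tested. Atp2a1 in left ventricle at 16.5 weeks was at 9.648 CPM in mouse 15 and at 2.72 to 2.97 CPM in the others. Sln in left ventricle at 16.5 weeks was at 9.928 CPM in mouse 19 and at 0.163 to 0.411 CPM in the others. Casq2 in kidney at 86 weeks was at 1.141 CPM in mouse 14 and at 0.966 to 0.972 CPM in the others.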

How the results depend on the processing

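Of 299 member values for age under the alternatives, 285 kept direction and side of the threshold, 13 reversed and 1 newly passed. For sex 65 of 66 did so and 1 newly passed, for tissues 401 of 420 (10 lost the threshold, 4 newly passed, 5 reversed), and for different age changes between tissues 130 of 130. The values counted for age in kidney cover Ryr1, Atp2a2 and Cacna1s alone. Those for sex cover only members with an unadjusted p under 0.05 by edgeR, so they do not describe members with smaller differences. Members called ranged from 0 to 1 without each mouse for both age and sex in left ventricle. Age differences in left ventricle ranged without each mouse from -0.0372 to 0.10 for Cacna1c, -0.66 to 0.0211 for Casq1 and -0.73 to 0.0273 for Atp2a1. In skeletal muscle they ranged from -0.20 to 0.14 for Cacna1c and -0.0496 to 1.27 for Ryr2, and in kidney from -0.16 to 0.0303 for Atp2a2. Cacna1c in skeletal muscle was also at -0.0213 with RLE size factors and with DESeq2 and at -0.0253 in a single fit. Skeletal muscle minus kidney for Pln ranged from -0.70 to 0.63 without each mouse, and was -0.34 without normalisation and -0.62 without the muscle library of mouse 17. For Cacna1c it was -0.17 without normalisation. With the longest transcript as length, the Cacna1s share was 5.04% in left ventricle and 98.94% in skeletal muscle, and without division by length 2.48% and 98.01%. The log2 ratio of Pln to Atp2a2 in left ventricle was -1.56 with the longest transcript and -2.84 without length. Without length this ratio was -5.40 in skeletal muscle, and that of Sln to Atp2a1 plus Atp2a2 was -14.72. The mouse as a replicate block put Sln in left ventricle minus skeletal muscle at 0.93 and changed no other call of a member. No paired analysis was possible for age because the ages share a single mouse number, which names different animals. Of 356 values of other named genes, 340 kept direction and side, 15 lost the threshold and 1 newly passed. Counts of all genes called for age ranged from 18 to 126 in left ventricle (33 as reported), 0 to 90 in skeletal muscle (8) and 0 to 238 in kidney (50). For sex they ranged from 112 to 725 (388), 303 to 918 (594) and 2108 to 4045 (3380), and for age changes that differ between tissues from 5 to 53 (18). The cause of these shifts was not tested. Depth limits Sln most, whose left ventricle count was 11 in its lowest library.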

Other observations

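The most similar genes to Casq1 in left ventricle, a tissue chosen after its values were seen, were Slc44a2 and Polrmt (Pearson r = 0.972 each over 8 libraries, among 8050 genes). Hlf, a clock-controlled transcription factor, ranked 3 at 0.966, and Arntl (BMAL1), a core clock gene, was last of the 8050 at -0.844. Both were chosen after their values were seen. Hlf had 16.1, 13.7, 23.3 and 11.5 CPM in left ventricle at 86 weeks, against 15.6, 13.5, 25.6 and 20.9 CPM at 16.5 weeks. Arntl had 23.9, 26.8, 8.79 and 26.9 CPM at 86 weeks, against 24.4, 23.4, 7.24 and 15.9 CPM at 16.5 weeks. Libraries with the highest Casq1 (16.5-week mice 19 and 20, 86-week mouse 14) had the highest Hlf and the lowest Arntl, at both ages. Because Hlf and Arntl were picked by how they followed Casq1, this match describes the libraries and carries no test. All of these libraries came from males. The labels give no time of day of sampling.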
